A study of Homo sapiens with 9 samples.

Results

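Immediate early genes are the first genes to be transcribed when a growth factor reaches a cell, and their mRNAs are usually short-lived. The 8 genes described here are EGR1, EGR2, EGR3, IER2, IER3, IER5, NR4A1 and CSRNP1. They were found by matching the RefSeq identifiers of a SLAM-Seq table to gene symbols, and they are 8 of the 25801 genes in that table, of which 16841 had reads. MCF10A cells, an established line of human breast epithelium that is not transformed, had been made JUN knockout, and then received JUN-AID-V5, a JUN protein fused to an auxin-inducible degron, together with TIR1, the plant receptor that the degron needs. All 3 groups share this background and the same medium, which held 5% horse serum, 20 ng/ml EGF, 10 µg/ml insulin, 0.5 µg/ml hydrocortisone and 0.1 µg/ml cholera toxin, so none of the groups is serum-starved. The group no4sU had no 4-thiouridine (4sU), and the labels do not say whether it had solvent. The group DMSO_4sU had DMSO, then 100 µM 4sU for 1 h. The group IAA_4sU had 100 µM of the auxin indole-3-acetic acid (IAA) for 1 h to degrade JUN, then 100 µM 4sU for 1 h. Each group has 3 labeled replicates, but the 3 IAA columns of the table hold the same values in all 56868 rows and were used as 1 library whose replicate number is not known, which leaves 7 distinct libraries.

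Cells put 4sU into the RNA they transcribe during the pulse. Alkylated 4sU is then sequenced as C in place of T. The T>C conversion rate of a gene, here given in percent of the T positions read, therefore follows the share of its mRNA that was made during the pulse, while its counts scaled to library size (CPM) follow its total mRNA. Libraries were made from 3′ ends, so a CPM is a level per transcript end and was not divided by length.

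EGR1, EGR2 and EGR3 encode zinc finger transcription factors that bind GC-rich DNA. NR4A1 encodes an orphan nuclear receptor, and CSRNP1 a nuclear protein rich in cysteine and serine. IER2 and IER5 encode related nuclear proteins, and IER3 encodes a small protein known for its part in the control of apoptosis. Growth factor signals reach many such genes through ERK and serum response factor, SRF, which binds the CArG box with its ETS partners. AU-rich stretches in the 3′ UTR, above all overlapping copies of ATTTA, are known to speed the decay of such mRNAs.

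The promoters that hold a CArG box are shown first, because this is the site through which serum and EGF act on EGR1. RefSeq windows from 250 bases before to 50 bases after a start site (GRCh38.p14) were matched for 6 of the 8 genes, with 10 windows in all. EGR1 (chr5:138465229-138465528, plus strand) had 2 CArG boxes, which begin 105 and 83 bases before the start. The EGR2 window at chr10:62816317-62816616, minus strand, had 1, which begins 71 bases before the start. The CArG boxes are in capitals and both windows run 5′ to 3′.
EGR1: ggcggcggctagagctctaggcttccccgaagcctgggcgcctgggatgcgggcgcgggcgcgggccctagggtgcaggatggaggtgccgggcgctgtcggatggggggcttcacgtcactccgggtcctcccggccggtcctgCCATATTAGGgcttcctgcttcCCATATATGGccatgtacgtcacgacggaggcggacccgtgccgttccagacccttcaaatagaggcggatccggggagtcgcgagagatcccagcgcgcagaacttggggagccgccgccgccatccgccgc
EGR2: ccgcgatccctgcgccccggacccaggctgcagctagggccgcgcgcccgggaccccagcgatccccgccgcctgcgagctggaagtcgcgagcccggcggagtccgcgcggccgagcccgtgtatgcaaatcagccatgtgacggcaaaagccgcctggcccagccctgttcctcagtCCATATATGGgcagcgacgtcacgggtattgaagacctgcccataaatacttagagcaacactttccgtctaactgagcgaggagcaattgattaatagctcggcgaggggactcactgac

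On either strand, 1.29% of 35116 promoter windows of this length hold a CArG box. The windows of IER2, IER5, NR4A1 and CSRNP1 had none, and IER3 and EGR3 were not matched. The AP-1 letters TGANTCA, the motif bound by JUN and FOS dimers, are in 7.71% of all windows and in none of the 10 windows here. The cyclic AMP response element letters TGACGTNA are in 3.01% of all windows, and among these genes in the EGR1 window alone, 138 bases before the start. GCGNGGGCG, the site that EGR proteins bind, is in 9.43% of all windows, among them that of EGR1 (198 bases before the start) and another window of EGR2. GGAATG, the site of TEAD factors, is in 14.03% of all windows and here in 1 further EGR2 window only. A match of letters describes the window and is not evidence that the site is bound.

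The 3′ UTRs are shown next, because reads and conversions were taken from 3′ ends and because AU-rich elements lie there. In GENCODE transcripts on GRCh37, ATTTA occurred 6 times in the 740 bases of the IER3 3′ UTR, or 8.11 per kb, which is above 97.7% of 18752 genes (median 1.58 per kb). IER5 had 10 in 3017 bases, CSRNP1 5 in 1203 bases, NR4A1 3 in 562 bases and EGR2 2 in 1214 bases. EGR1 had 1 in 1225 bases and IER2 none in 1056 bases. The longer form TATTTAT is in 32.31% of genes, and was found in IER3, IER5 and CSRNP1. The first such site of each is given 5′ to 3′ with that first copy of TATTTAT in capitals (the IER3 stretch holds a further copy, left in lower case), for IER3 at chr6:30711430-30711458 (minus strand), IER5 at chr1:181061116-181061144 (plus strand) and CSRNP1 at chr3:39184376-39184404 (minus strand).
IER3: ctcctaattaaTATTTATatgtatttatg
IER5: ccataataatgTATTTATagaattaaaca
CSRNP1: ttctctggattTATTTATttgttttaact

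The 7 distinct libraries held between 18997637 and 24014195 reads, and the median conversion rate of 7179 genes with at least 200 reads on average was 0.0550 to 0.0573% without 4sU, 0.180 to 0.236% in the DMSO_4sU libraries and 0.219% in the single IAA library. The 9 basal mammary markers (keratins, laminin and integrin genes and TP63) summed to 4330 to 5463 CPM in every library. They were uneven, with KRT6A at 1202 to 2293 CPM and LAMB3 at 850 to 2360 CPM. The basal keratin KRT14 was at 3.63 to 10.6 CPM only. Of the endothelial markers VWF and CDH5 were at 0 reads in all libraries, while PECAM1 reached 1.08 CPM and KDR 0.282 CPM. Of the blood cell markers PTPRC and CD3E were at 0 reads, while CD68 reached 7.93 CPM. Degradation acts on the JUN protein, and mRNA libraries do not measure it. JUN mRNA was at 50.2 ± 6.60 CPM without 4sU and 25.4 ± 4.95 CPM with DMSO and 4sU (SD, n = 3 each), and stood at 62.9 CPM for IAA.

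The genes covered a wide range of levels. IER3 was the most abundant, with 500 to 750 CPM without 4sU, followed by IER5 with 96.6 to 356 CPM. EGR1 had 47.4 to 66.3 CPM, IER2 22.0 to 39.2 CPM and CSRNP1 15.3 to 27.5 CPM. These are levels per 3′ end, and each gene was read in a single interval of 740 to 1237 bases (960 for IER5, which is shorter than its annotated 3′ UTR). EGR1 and IER2 did not overlap in any group, while the ranges of IER2 and CSRNP1 overlapped both without 4sU and with DMSO and 4sU. On GRCh37, EGR1 lies at chr5:137801168-137804992 (plus strand), IER2 at chr19:13261225-13265725 (plus), IER3 at chr6:30710976-30712325 (minus), IER5 at chr1:181057836-181062036 (plus) and CSRNP1 at chr3:39183346-39196053 (minus).

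The remaining members had few reads. NR4A1 had 4 to 22 reads per library, EGR2 2 to 6 reads and EGR3 1 to 8 reads. EGR2 was thus at 0.0989 to 0.299 CPM although its promoter holds a CArG box as that of EGR1 does. For NR4A1 the exact Poisson 95% interval, which covers counting error only, ran from 0.144 to 0.656 CPM in DMSO_4sU replicate 2 and from 0.686 to 1.66 CPM in DMSO_4sU replicate 3. Neither EGR2 nor EGR3 reached the level needed for a test of total mRNA, and conversion rates of these 3 genes rest on too few reads to be ranked. NR4A1, for example, was at 0%, 6.37% and 0% in the 3 DMSO_4sU libraries and at 2.74% in the IAA library.

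The first comparison, of labeled with unlabeled cells, shows how strongly each mRNA was labeled during the pulse, relative to other mRNAs. The 5 expressed members were among the most strongly labeled mRNAs of these cells. EGR1 had a conversion rate of 9.03%, 7.94% and 6.66% in DMSO_4sU replicates 1, 2 and 3, against 0.0752%, 0.0497% and 0.0515% without 4sU. All labeled libraries were far above all unlabeled libraries, and the mean of 7.88% ± 1.19 (SD, n = 3) was 134-fold higher than the background and ranked 5 of the 7179 genes with at least 200 reads on average.

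IER3 had rates of 4.91%, 4.08% and 3.89% with DMSO and 4sU and 0.0704%, 0.0647% and 0.0826% without 4sU. Its labeled mean was 4.29% ± 0.546 (SD, n = 3), rank 33 of 7179. IER2 stood at 2.80%, 2.42% and 2.89% against 0.0447%, 0.0629% and 0.0192%. It had rank 82, with a labeled mean of 2.70% ± 0.246 (SD, n = 3).

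CSRNP1 had 2.02%, 1.67% and 3.16% with DMSO and 4sU, and 0.186%, 0.0588% and 0.121% without it, and DMSO_4sU replicate 3 stood above the others of its group. IER5 had 2.31%, 2.11% and 1.75% against 0.0455%, 0.0677% and 0.0705%. These genes were at rank 106 and rank 125. The order of the mean rates with DMSO and 4sU was EGR1, IER3, IER2, CSRNP1 and IER5. EGR1 lay above IER3, and IER3 above IER2, in each of the 3 DMSO_4sU libraries and with no overlap of their ranges there, whereas the ranges of IER2 and CSRNP1, and of CSRNP1 and IER5, overlapped.

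**Figure D1:**
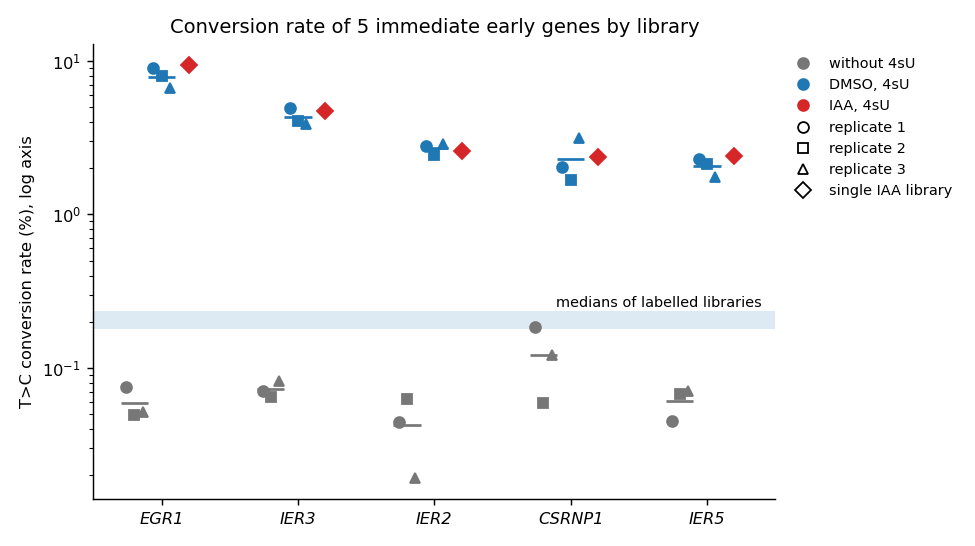
T>C conversion rate in percent (log axis) of the 5 expressed genes, with a point for each library and a short line at the mean of each group of 3. The labeled libraries with DMSO (blue) and IAA (red) lie between 1.67% and 9.44%, above the band of library medians (0.180 to 0.236%), while the unlabeled libraries (gray) lie below 0.19%.

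With limma on log2(rate + 0.0005), the rate was higher with 4sU for 5 of the 5 members that could be tested, while 48.8% of the 10550 genes tested were called. The log2 difference was 6.18 for EGR1 (SE 0.36, limma adjusted p = 0.00055), 5.14 for IER3 (SE 0.34, limma adjusted p = 0.00062) and 4.92 for IER2 (SE 0.35, limma adjusted p = 0.00076). It was 4.24 for IER5 (SE 0.33, limma adjusted p = 0.0009) and 3.78 for CSRNP1 (SE 0.46, limma adjusted p = 0.0025). These 5 calls held in each of the alternative settings and with each library left out. NR4A1, EGR2 and EGR3 did not have a rate above 0 in enough libraries.

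High rates were shared by other immediate early genes. A list of 42 further immediate early and primary response genes (FOS, JUN, MYC, DUSP, KLF and others) was chosen with earlier results of these data known. It describes these genes and is not an independent check. Its median rate was 2.99% with DMSO and 4sU, beside 0.248% for all genes tested. Of the genes in it, 39 of the 39 that could be tested were higher with 4sU. The largest log2 differences in that list were those of DUSP1 (6.78, limma adjusted p = 0.00055) and DUSP2 (6.62, limma adjusted p = 0.0015), phosphatases that inactivate MAP kinases. Next was ZFP36 (6.10, limma adjusted p = 0.00055), which encodes a protein that binds AU-rich elements. The 10 stable mRNAs used for reference (ACTB, GAPDH and others) had a median rate of 0.178%.

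The ATTTA count did not order the rates of these few genes: EGR1, with a single ATTTA, had the highest rate, and IER2, with none, had a higher rate than IER5, with 10. For IER5 the count covers an annotated 3′ UTR of 3017 bases, while its rate was read in an interval of 960 bases. How many of the 10 lie in that interval was not tested. Over all genes with at least 200 reads on average and a matched 3′ UTR, the median rate was 0.187% with no ATTTA (1545 genes), 0.206% with 1 to 5 (3103 genes) and 0.230% with 6 or more (2326 genes).

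In total mRNA, EGR1, IER2, IER3 and CSRNP1 were lower in the libraries with 4sU, while IER5 and NR4A1 did not pass the test. EGR1 was at 66.3, 47.4 and 48.1 CPM in no4sU replicates 1, 2 and 3, and at 36.1, 19.8 and 21.1 CPM in DMSO_4sU replicates 1, 2 and 3. The groups did not overlap, and the mean with 4sU was 25.7 ± 9.05 CPM against 53.9 ± 10.7 CPM (SD, n = 3 each), 52.4% lower. The log2 change was -1.14 (SE 0.23, limma adjusted p = 0.036).

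IER2 was at 22.0, 39.2 and 31.6 CPM without 4sU and at 10.2, 8.16 and 10.8 CPM with DMSO and 4sU, again without overlap, a log2 change of -1.61 (SE 0.24, limma adjusted p = 0.0096). IER3 was at 514, 750 and 500 CPM without 4sU and at 312, 279 and 278 CPM with DMSO and 4sU. Its groups were apart as well, with a log2 change of -1.06 (SE 0.20, limma adjusted p = 0.027). CSRNP1 went from 15.3, 19.6 and 27.5 CPM to 6.67, 5.21 and 10.4 CPM, with no overlap and a log2 change of -1.44 (SE 0.29, limma adjusted p = 0.038).

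IER5 differed between the replicates. It was at 96.6, 356 and 309 CPM without 4sU, so that replicate 1 stood far below the others, and at 85.2, 88.3 and 99.2 CPM with DMSO and 4sU. The ranges overlapped, and the log2 change of -1.34 was not past the threshold (SE 0.44, limma adjusted p = 0.25). Taken by replicate number, the log2 difference was -0.15, -2.10 and -1.76. Without no4sU replicate 1 it was -1.98 over the remaining libraries (limma adjusted p = 0.00011), and DESeq2 on all 6 libraries gave -1.55 (adjusted p = 0.0031). NR4A1 was at 0.939, 0.179 and 0.474 CPM without 4sU and at 0.658, 0.333 and 1.10 CPM with DMSO and 4sU, with a log2 difference of 0.14 (SE 0.23, limma adjusted p = 0.91).

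**Figure D2:**
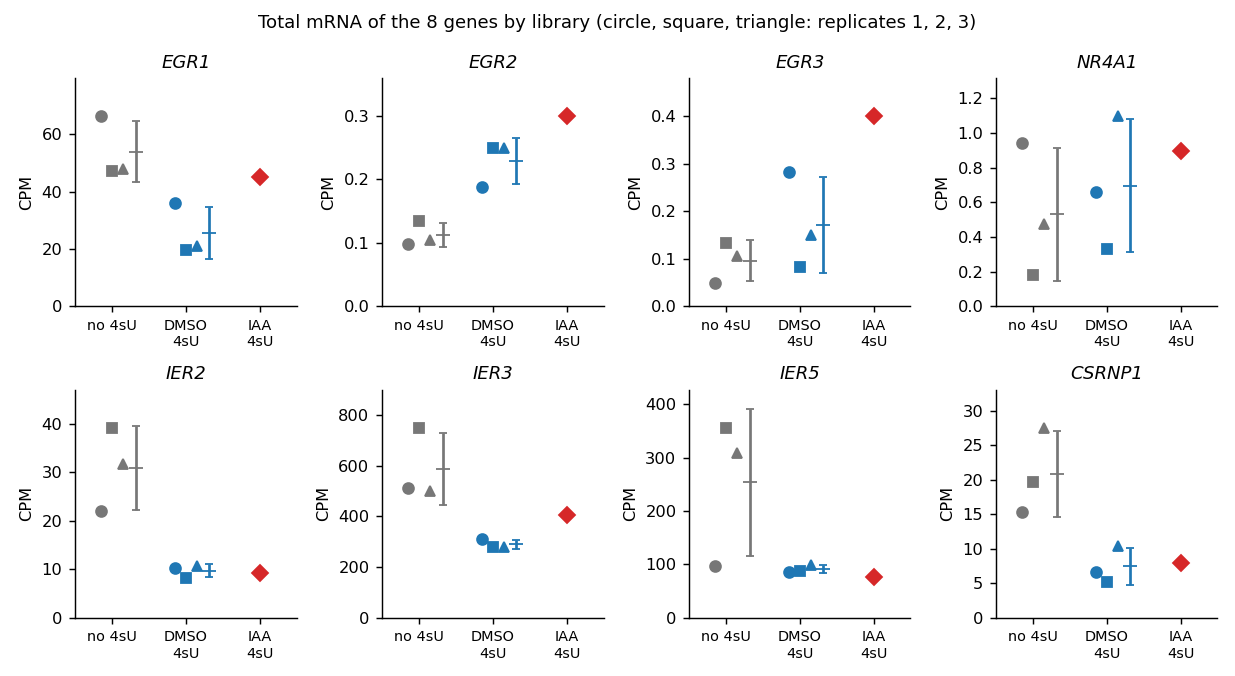
Total mRNA (CPM, linear axes from 0) of the 8 genes in each library, with circle, square and triangle for replicates 1, 2 and 3, a diamond for the single IAA library, and mean ± SD beside the groups of 3. EGR1, IER2, IER3 and CSRNP1 have all DMSO_4sU libraries (blue) below all no4sU libraries (gray), IER5 has a low no4sU replicate 1, and EGR2, EGR3 and NR4A1 stay below 1.2 CPM.

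In all, 4 of the 6 members tested were lower with 4sU and 0 were higher, where 1.76% of the 11898 genes tested were called lower and 0 higher. At an unadjusted limma p of 0.05 the counts over all genes were 1004 lower and 220 higher, edgeR called 181 lower and 0 higher, and DESeq2 called 412 lower and 5 higher. In 4 members all DMSO_4sU libraries lay below all no4sU libraries, which 9.29% of genes did. Each of these 4 calls was lost without some single library. EGR1 missed the threshold without DMSO_4sU replicate 2 or 3 or no4sU replicate 2 or 3 (limma adjusted p = 0.154, 0.230, 0.098 and 0.105), although its log2 change stayed between -1.40 and -0.99. IER3 and CSRNP1 missed it when any single library except no4sU replicate 1 was left out, with limma adjusted p up to 0.172 and 0.160 and log2 changes of -1.20 to -0.86 and -1.69 to -1.19. IER2 missed it only without DMSO_4sU replicate 2 (limma adjusted p = 0.058). EGR1 also missed it in edgeR's quasi-likelihood test (adjusted p = 0.062) and without TMM scaling (limma adjusted p = 0.079). The median of all genes was 0.0074 on the log2 scale, and the changes are relative to it. In bulk libraries fewer cells that express a gene and less mRNA per cell cannot be told apart.

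The high conversion rate went together with the lower level. Of 120 other genes with a rate of at least 2.06%, that of IER5, 47 (39.2%) were called lower in total mRNA and 103 had a negative log2 change, with a median of -0.71. The median of the 5 expressed members was -1.34. Whether reads with many conversions were lost in mapping was not tested, and neither was an effect of 4sU on transcription. The labels do not say whether the no4sU cells had DMSO, and an effect of DMSO was not tested either.

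**Figure D3:**
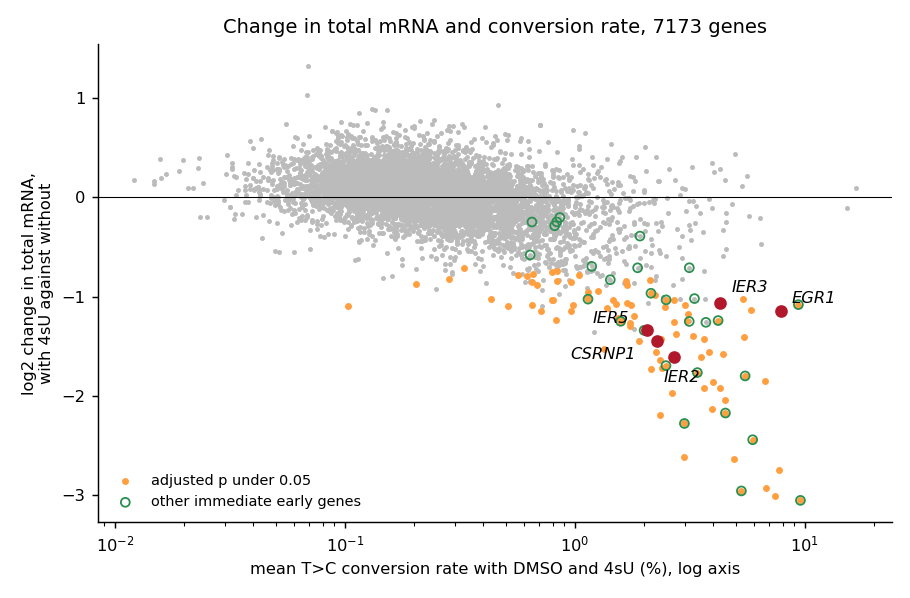
Log2 change in total mRNA with 4sU against without, plotted over the mean conversion rate with DMSO and 4sU (percent, log axis) for 7173 genes. The 5 expressed members (dark red) lie at 2.06 to 7.88% and at -1.06 to -1.61. The 28 other immediate early genes (green rings) spread more widely, for example MCL1 at 0.651% and -0.25 and DUSP1 at 9.57% and -3.05. Genes with an adjusted p under 0.05 are in orange.

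IER5L, a gene related to IER5, had a rate of 5.15% and was at 14.3, 6.30 and 8.11 CPM without 4sU and at 5.26, 2.42 and 3.29 CPM with DMSO and 4sU. Its log2 change of -1.21 was short of the threshold (limma adjusted p = 0.076) and past it with the replicate number as a block (limma adjusted p = 0.011). NR4A2 had a log2 change of -0.70 (limma adjusted p = 0.27), CSRNP2 of -0.39 (limma adjusted p = 0.45) and EGR4 of 0.04 (limma adjusted p = 0.98). NR4A3 and CSRNP3 had 5 reads or fewer in every library. Without the block, limma called 0 of the 4 family genes tested (3 lower at an unadjusted p of 0.05), edgeR 0 and DESeq2 1.

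NAB2, a corepressor that binds EGR proteins and is itself a target of EGR1, had a log2 change of -0.76 (limma adjusted p = 0.094), while NAB1, the related corepressor, stood at 0.01. SRF and its partners ELK1, ELK3, ELK4, MRTFA and MRTFB had 0 of 6 genes past the threshold in limma, edgeR and DESeq2, and 0 at an unadjusted p of 0.05. Among the 42 other immediate early genes, a list chosen with earlier results known, 20 of the 40 tested were lower and 0 higher in limma. Their median log2 change was -1.03. edgeR also called 20 lower and DESeq2 26, and 0 were higher at an unadjusted p of 0.05 in any of these tests. The largest falls were those of DUSP1 (-3.05, limma adjusted p = 0.00017), MYC, a growth-promoting transcription factor (-2.96, limma adjusted p = 0.0014), and KLF6, a zinc finger factor (-2.44, limma adjusted p = 0.0004). Of the 10 stable mRNAs, 0 passed in limma, edgeR or DESeq2 (1 higher at an unadjusted limma p of 0.05), and their median was 0.10.

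The genes whose total mRNA followed the mean profile of the 6 tested members most closely were KLF7, ID3, ZCCHC8, TMCC1 and MTF1, with Pearson's r between 0.985 and 0.994 over the 7 libraries, among 7059 genes with at least 10 CPM on average. All values of a library share its scaling, and the profile includes the members themselves. Among these, IER2 (r = 0.985) and CSRNP1 (r = 0.967) lay closest to the profile, IER3 (r = 0.934) and IER5 (r = 0.885) came next, EGR1 was lower (r = 0.769), and NR4A1 ran against it (r = -0.338).

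The last comparison, of IAA with DMSO in labeled cells, asks what differs after degradation of the JUN protein. IAA was given 1 h before the 1 h pulse, so total mRNA is not limited to changes within the pulse. With 1 IAA library there is no replicate check, so its values are given beside the 3 DMSO_4sU libraries, and a gene counted as changed when it lay at least 1 log2 unit from their mean and outside their range. In total mRNA, EGR1 was the member that differed most. It was at 45.1 CPM in the IAA library against 36.1, 19.8 and 21.1 CPM with DMSO, above all of them, with a difference of 0.77 on the log2 scale. Relative to the single DMSO libraries the difference was 0.25, 1.07 and 0.98, so it was small against replicate 1.

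IER3 was at 404 CPM with IAA against 312, 279 and 278 CPM, a log2 difference of 0.41, and IER5 was at 76.1 CPM against 85.2, 88.3 and 99.2 CPM, a difference of -0.32. IER3 was thus above, and IER5 below, all DMSO libraries. IER2 (9.22 CPM, -0.13), CSRNP1 (7.93 CPM, 0.06) and NR4A1 (0.897 CPM, 0.15) lay within the DMSO range. None of the 6 members tested counted as changed, where 0.213% of 11756 genes did, and EGR1, IER3 and IER5 were outside the range, as were 41.7% of all genes. Without DMSO_4sU replicate 1, EGR1 counted as changed. In limma over all 7 libraries, which assumes that the lone IAA library varies like the others, the unadjusted p of EGR1 was 0.039 and the adjusted p was 1.00 for each member.

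The share of all genes that were lower in the IAA library than in each library without 4sU was not computed. EGR1, IER2, IER3, IER5 and CSRNP1 were lower in the IAA library, which also had 4sU, than in each library without 4sU. For EGR1 this margin was small: its 45.1 CPM in the IAA library (exact Poisson 95% interval 42.2 to 48.1) lay closer to the 47.4 and 48.1 CPM of no4sU replicates 2 and 3 than to any DMSO_4sU library, of which replicate 1 was highest with 36.1 CPM. Over 7064 genes, its total mRNA correlated with DMSO_4sU replicates 1, 2 and 3 at r = 0.991, 0.963 and 0.977, values across genes, which are not independent. Which replicate the IAA library belongs to is not known, and a difference between cultures and an effect of IAA cannot be told apart.

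The conversion rates differed little with IAA. EGR1 was at 9.44% in the IAA library, IER3 at 4.73%, IER2 at 2.60%, IER5 at 2.39% and CSRNP1 at 2.38%. After each library was centered on its median, the log2 differences from the DMSO mean were 0.12 for EGR1, -0.01 for IER3, -0.21 for IER2, 0.06 for IER5 and -0.05 for CSRNP1. The single member that counted as changed was EGR3 (-3.07), where 21.6% of 11378 genes did. Its rate was 0% on 8 reads with IAA, and 0.667%, 0% and 1.43% on 2 to 6 reads with DMSO. It did not count as changed without centering, and it is far from the mean of 200 reads that a stricter filter asked for. Of the members tested, EGR3 and IER2 lay outside the DMSO range, as did 49.4% of genes. For IER2 this depended on the centering, since its uncentered 2.60% lay within the DMSO range of 2.42 to 2.89%. Uncentered, EGR1 (9.44%) and IER5 (2.39%) lay above their DMSO libraries, of which the highest were at 9.03% and 2.31%. The share of all genes outside the range was not computed without centering.

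The product of the rate above background and the CPM follows the amount of labeled mRNA, in arbitrary units. Its rates were not centered on the library median, which was 0.236%, 0.180% and 0.180% in DMSO_4sU replicates 1, 2 and 3. In the IAA library the median was 0.219%. Differences in labeling between libraries therefore enter the product, and whether a gene lies within the DMSO range can depend on this choice. For EGR1 it was 3.24, 1.56 and 1.39 with DMSO and 4.23 with IAA, which is 2.05 times the DMSO mean of 2.06 ± 1.02 (SD, n = 3) and 1.31 times replicate 1. For IER3 it was 15.1, 11.2 and 10.6 with DMSO and 18.8 with IAA, which is 1.53 times the mean of 12.3 ± 2.43 (SD, n = 3) and 1.25 times replicate 1. These 2 of the 5 expressed members lay above all DMSO libraries. The share of all genes outside the DMSO range was not computed for this product. It was 41.7% for total mRNA and 49.4% for the rate. For IER2, IER5 and CSRNP1 the ratios to the DMSO mean were 0.904, 0.982 and 1.03, all within the DMSO range. Without DMSO_4sU replicate 3, 4 of the 5 were outside it.

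**Figure D4:**
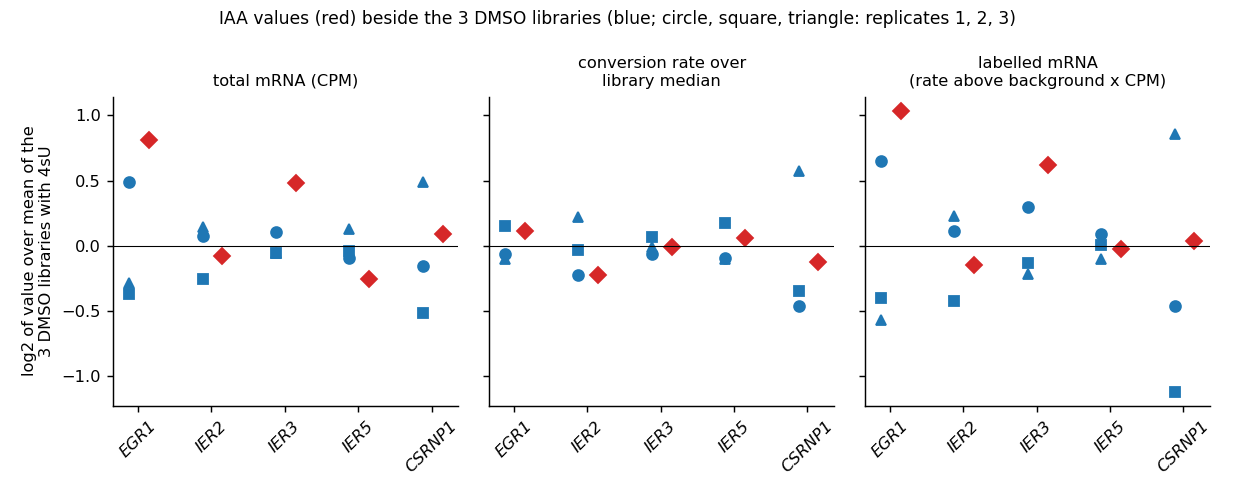
The IAA library (red diamonds) and the 3 DMSO_4sU libraries (blue) for the 5 expressed genes, each as log2 of its value over the DMSO mean, for total mRNA, conversion rate over the library median, and labeled mRNA. EGR1 and IER3 lie above the DMSO libraries in total and labeled mRNA, by the least against replicate 1 (circles), while its conversion rates lie within 0.25 of the DMSO mean.

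Among the related genes, IER5L was the single family gene that counted as changed in total mRNA, at 10.2 CPM with IAA against 5.26, 2.42 and 3.29 CPM with DMSO, a log2 difference of 1.25. Its conversion rate was 3.51% with IAA and 5.48%, 4.21% and 5.76% with DMSO. Of the 40 other immediate early genes tested, JUN and TIPARP, which encodes a poly(ADP-ribose) polymerase, counted as changed, both higher with IAA, by 1.22 and 1.23 on the log2 scale (these 2 are named because the count is small). The median over that list was 0.12, beside 0.0077 over all genes. COL1A1, a fibroblast collagen, was at 9.82 CPM in the IAA library against 4.45 ± 1.38 CPM (SD, n = 3) with DMSO, and the 5 fibroblast markers summed to 9.92 CPM against 3.62 to 6.06 CPM, with COL1A2 at 0 in all libraries. CD68, a macrophage marker, was at 7.93 CPM against 3.81 ± 1.65 CPM (SD, n = 3), with PTPRC at 0. The part of other cells in these values was not tested.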

How the data were processed

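SLAM-Seq libraries were made from 3′ ends of total RNA of MCF10A cells in 3 groups of 3 replicates, which the study describes as biological replicates. The labels do not say how the cultures were separated, and p-values measure the spread between these libraries. The authors ran the nf-core/slamseq pipeline (versions are not given in the sources used here; the labels name hg19) and deposited, for each RefSeq 3′ interval, the T>C conversion rate as a fraction with no background subtraction, and a signal column headed CPM. The deposited signal values were whole multiples of 1 read in 100% of non-zero cases (tolerance 0.01 read), which gave reads and library totals. No T coverage was used, which leaves the counting error of a rate unknown. Of the per-sample columns, 0 were left unused.

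Identifiers were matched to symbols with a RefSeq table (GRCh38.p14, names only, 97.71% of rows). Rows of equal length and values were used once; intervals of a gene were summed for reads and averaged for rates over intervals with reads (21.2% of genes had several). IER3 has 6 rows, 1 of them with reads. Gene and 3′ UTR coordinates are from the GENCODE annotation of GRCh37, and promoters from RefSeq (GRCh38.p14).

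Rates were compared with limma 3.58.1 (R 4.3.3; trend, robust) on log2(rate + 0.0005) where 3 or more of 6 libraries had a non-zero rate, and total mRNA on log2(CPM + 1) with TMM library sizes for genes with a CPM of at least 0.5 in at least 3, both two-sided, with Benjamini-Hochberg adjustment over all genes at 0.05. Fold changes on this scale understate the change of low genes. edgeR 4.0.16 and DESeq2 1.42.0 on recovered reads, other pseudocounts and filters, no TMM, the interval with most reads, a replicate block and leaving out libraries were alternatives. The fits were tested on simulated data. Leaving out a replicate number in both groups was chosen after seeing the data. For the IAA library, the rate filter asked for a non-zero rate in at least 2 of the 4 labeled libraries. The filter on total mRNA asked for a CPM of at least 0.5 in at least 4 of the 7 distinct libraries.

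Deviations from the group means of same-numbered libraries correlated at 0.41, 0.33 and 0.49 in total mRNA and at 0.020, -0.0097 and 0.010 in the rates (7042 genes), so the numbers, which come from the sample titles, pair the libraries in total mRNA. The member p-values above and the fits with libraries left out did not use this pairing. With the replicate block, the limma adjusted p in total mRNA was 0.011 for EGR1, 0.017 for IER2, 0.027 for IER3, 0.010 for CSRNP1 and 0.11 for IER5.

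The members and gene lists were chosen with earlier results of these data known. All members, their family genes and the EGR corepressors are named, and of the other lists the 3 genes with the largest change past the threshold in each direction. The 5 genes most like the members were found by Pearson's r. Tables were handled in Python 3.11.15 with pandas 2.3.3 and scipy 1.17.1 (numpy 2.4.6).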

Additional observations from a re-analysis of the deposited data

How the results depend on the processing

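The 5 members with higher rates remained at 5 in all settings. All genes with a higher rate numbered 3419 to 4810 without single libraries and 2015 to 2611 without a replicate number in both groups (2550 without replicate 3), against 5148. In total mRNA with 4sU, members called lower were 0 to 5 and genes 64 to 342 without single libraries, and 0 to 5 and 27 to 447 without a replicate number in both groups (32 genes without replicate 3), against 4 and 209; without the filter on low values 1 member was called, and DESeq2 called 412 genes. NR4A1, at 0.14 on the log2 scale and up to 0.30 without no4sU replicate 1, turned to -0.019 without DMSO_4sU replicate 3, -0.033 without no4sU replicate 2 and -0.018 without replicate 3 in both groups. With the replicate block, 4 members and 259 genes were called lower in total mRNA and 5 members and 4101 genes higher in the rate, and it changed no member's call. No paired analysis was possible for IAA because the replicate number of its library is not known.

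For IAA against DMSO, 1 member counted as changed in the rate, with 0 without centering, 0 with at least 200 reads on average, 0 in limma pooled over 7 libraries, and 1 to 2 when a DMSO library was left out. Genes counted as changed in the rate were 2459, with 1481 at a pseudocount of 0.002, 819 with at least 200 reads on average and 6 in pooled limma. In total mRNA, 0 members and 25 genes counted as changed, with 0 to 1 and 18 to 112 when a DMSO library was left out, and 55 genes at a pseudocount of 0.5, 6 at a pseudocount of 5, 16 with the interval with most reads and 1 in pooled limma. Members outside the DMSO range in labeled mRNA were 2, or 2 to 4 with a library left out, and the share of all genes outside it was not computed. The cause of these shifts was not tested.

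EGR2, EGR3 and NR4A1 are limited by their few reads, and no IAA value has a replicate.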
